A study of Mus musculus with 1753 samples.

Results

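Mural cells of mouse hindlimb muscle were described here as the cells that the labels place in cluster 7. They numbered 187 of 1753 single cells, and the other 1566 cells were fibroblasts in 9 clusters. All cells came from adult male mice aged 10 to 20 weeks, were sorted from dissociated muscle and were sequenced with Smart-seq2, which reads full-length cDNA of one cell per well. The label C57BL6, an inbred strain with no reporter, gave 9 mural cells of 373 cells, which antibodies to PDGFRα or PDGFRβ had selected. Acta2GFP, with GFP under the smooth muscle actin promoter, gave 56 of 157, and Cspg4dsRED, with a red protein under the NG2 promoter, gave 74 of 181. PdgfrbGFP, with GFP under the Pdgfrb promoter, gave 37 of 630, and the PdgfraGFP - PdgfrbGFP pool, cells of a pair of reporter lines, gave 11 of 412. Cells with the endothelial protein CD31 on their surface had been gated out. Elastase was added for Acta2GFP when the tissue was dissociated. The labels name no animal, so the strain label served as the replicate, and an SD below is the spread between 5 strain labels. Strain and way of sorting cannot be told apart, and a label on 2 plates may join several preparations. Acta2GFP and Cspg4dsRED lay on 1 plate each, and C57BL6, the pool and PdgfrbGFP on 2 each. Because the sort was made on reporters, the shares of mural cells say nothing of their abundance in muscle.

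Mural cells wrap the endothelial tube of blood vessels. Smooth muscle cells of arteries and arterioles form contractile rings that set vessel diameter, and pericytes lie singly along capillaries. Contraction follows calcium entry and release, activation of myosin light chain kinase and sliding of actin on smooth muscle myosin, and nitric oxide opposes it through soluble guanylate cyclase and cGMP-dependent kinase. Muscle fibroblasts lie outside the vessel wall and build the collagen-rich matrix between fibres.

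Mural cells held a median of 156959 gene counts and 3907 genes, and fibroblasts 269495.5 and 4492.5. The median of mural cells was lowest in Cspg4dsRED, at 2306 genes. The 8 markers given for the cluster were found in most of its cells: 184 of 187 mural cells had a count of 5 or more of them, against 255 of 1566 fibroblasts. The 12 fibroblast markers summed to between 462 and 2574 CPM (counts scaled to the library total) in the mural sums of the strains and to between 30710 and 39662 CPM in the fibroblast sums. In sums of cells, fewer cells that express a gene and less of its RNA per cell cannot be told apart. Endothelial markers summed to 18.4 to 194 CPM in mural cells, against 36 to 195 CPM in fibroblasts. Immune markers summed to 1.59 to 14.9 CPM in mural cells, apart from 624 CPM in C57BL6, against 9.55 to 33.3 CPM in fibroblasts. Skeletal muscle fibre markers summed to 105 to 610 CPM, highest in C57BL6 (Myh1 245 and Ckm 191 CPM) and next in PdgfrbGFP (337), against 198 to 339 CPM in fibroblasts. The satellite cell genes Myf5 (52.6 CPM), Cdh15 (11.7) and Pax7 (2.91) were found in Acta2GFP and were at 0.317 or below elsewhere. The part of these transcripts in the genes shared with muscle fibres, such as Cpt1b, Cox7a1, Sgca, Ldb3 and Slc2a4, was not tested.

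The C57BL6 value joined a pair of plates that were unlike each other. On the larger plate, 5 of 366 cells were mural, and on the smaller, 4 of the 7 labelled cells. Lyz2, the lysozyme of macrophages and neutrophils, stood at 1200 CPM in the mural cells of the smaller plate, at 0 on the larger, at 9.16 CPM in those of Cspg4dsRED and at 0.0786 CPM or below in the other strains. The 5 mural cells of the larger plate had no count of Pln, Casq2, Kcna5, P2rx1 or Olfr78, genes that the 4 cells of the smaller plate held at 962, 589, 410, 931 and 2931 CPM. List counts that change by more than 1.5 times are therefore also given without the smaller plate.

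In each strain the counts of mural cells and of fibroblasts were summed, and the difference was taken on the log2 CPM scale after TMM scaling. A gene was called higher or lower in mural cells where the mean difference over the 5 strains was 2 or more in size (4-fold) and all 5 strains had the same sign. Since the clusters had been made from these same counts, the comparison is a description and carries no test. Of 13880 genes compared, 638 (4.6%) were called higher and 1933 (13.9%) lower. Without the smaller plate the shares were 2.24% and 15.6%. The sums differed in depth. Mural sums held 2165717 (C57BL6) to 12728262 counts (Acta2GFP), and fibroblast sums 14362808 (Cspg4dsRED) to 157847485 (the pool). A gene with no count in a sum was placed by the prior count at -4.78 log2 CPM. The part of depth in the numbers called was not tested. The median difference over all genes was -0.65, and it ran from -1.25 to 0.02 over the other scalings and units tried. By strain it was -0.04 in Acta2GFP, -0.98 in C57BL6, -0.11 in Cspg4dsRED, -0.58 in the pool and -0.16 in PdgfrbGFP. Each list median below is to be read beside -0.65 and beside these values. Fibroblasts are of several kinds, and of 34 named genes called lower 18 were within 1 log2 unit of the mural level, or on its other side, in 1 or more single clusters, as were 2 of 65 called higher. The shares called in each gene list are drawn against those of all genes. Some list members are themselves markers of the cluster, so their calls were fixed by the choice of markers. They include Myh11, Sorbs2 and Cnn1 among contractile filaments and Notch3 and Nrip2 in the Notch pathway. Bcam in cell-cell adhesion and Tinagl1 in basement membrane are further ones.

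**Figure D1:**
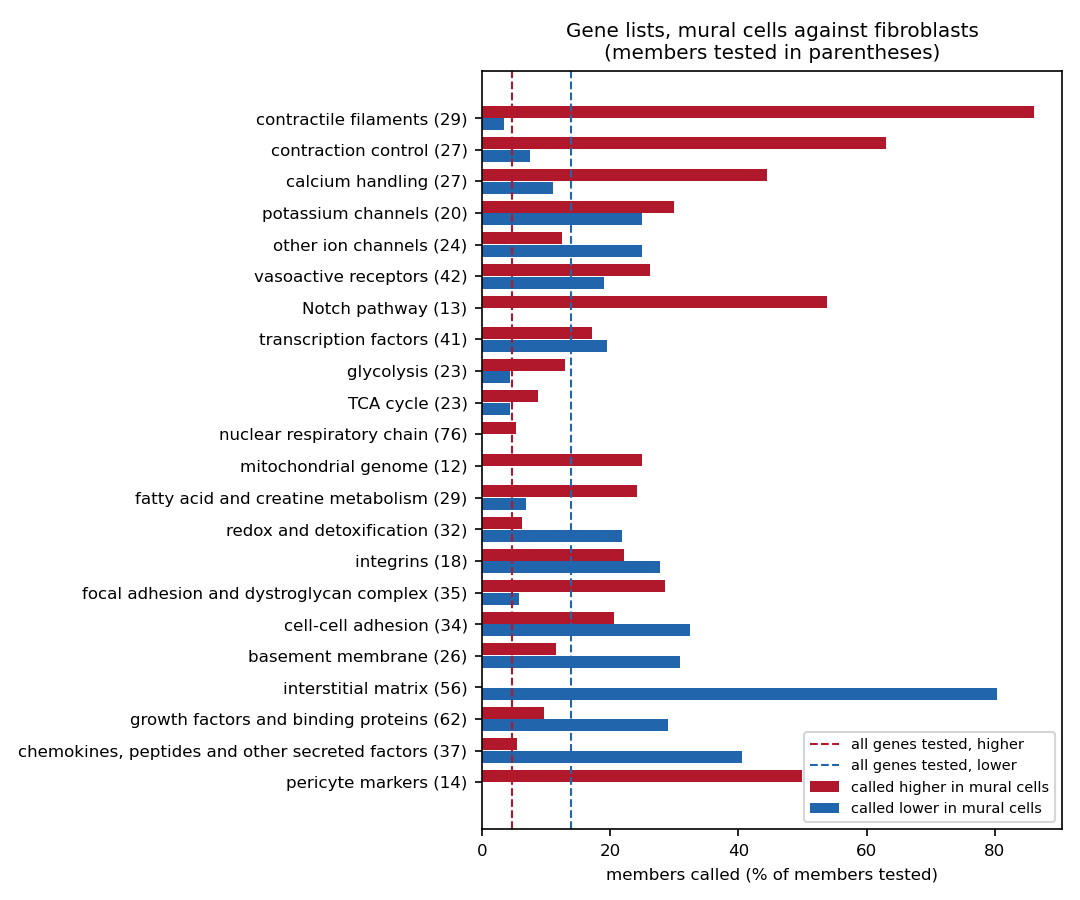
Percent of the tested members of 22 gene lists that were called higher (red) or lower (blue) in mural cells, with dashed lines at 4.6% and 13.9% for all 13880 genes. Contractile filaments reached 86.2% higher, and interstitial matrix 80.4% lower.

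The markers that define the cluster are given first, as a description. Myh11, the smooth muscle myosin heavy chain, stood at 11.97 log2 CPM in mural cells of Acta2GFP, 11.67 in C57BL6, 12.53 in Cspg4dsRED, 11.81 in the pool and 12.61 in PdgfrbGFP, and at 1.47 to 4.98 in the fibroblasts. All mural sums lay above all fibroblast sums, with a difference of 9.18 ± 1.40 (SD, n = 5). Notch3, the Notch receptor of mural cells, stood at 9.33, 10.10, 9.54, 10.20 and 9.60 log2 CPM in the same order of strains and at 2.77 to 4.00 in fibroblasts. Its difference of 6.45 ± 0.22 had the smallest spread of the 8 markers. Sorbs2, an adaptor of actin fibres (9.81 ± 2.13), Sncg, gamma-synuclein (9.63 ± 2.29), and Cnn1, calponin (9.26 ± 2.00), differed most. Their spread lay mainly in the fibroblasts. There Cnn1 was at 3.62 and 2.52 log2 CPM in Acta2GFP and Cspg4dsRED, where 35.7% and 40.9% of cells were mural. It was at 1.33, -0.91 and -3.67 in PdgfrbGFP, the pool and C57BL6, where 5.87%, 2.67% and 2.41% were mural. Sncg and Sorbs2 had the same order of strains, and the reason was not tested. Tinagl1, a secreted protein of the basement membrane (8.92 ± 1.32), Nrip2 (8.39 ± 0.94) and Bcam, a receptor for laminin (7.94 ± 1.05), completed the list, and the groups did not overlap for any of the 8. Over all genes, mural sums lay wholly above fibroblast sums for 6.3%. Compared per kilobase of exon, Sncg stood at 1047 CPM per kb in mural cells, Myh11 at 584 and Notch3 at 107.

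**Figure D2:**
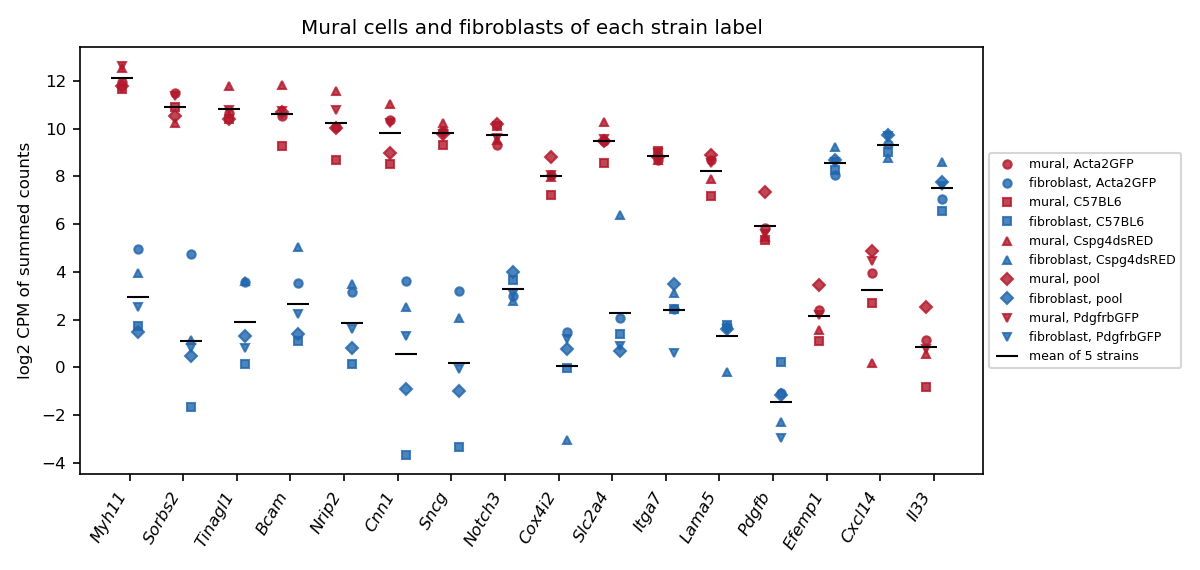
Log2 CPM of summed counts for 16 genes in mural cells (red) and fibroblasts (blue) of the 5 strain labels (symbols), with the mean as a black line. The mural points lie above the fibroblast points for the first 13 genes and below them for Efemp1, Cxcl14 and Il33.

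Contractile filaments had the highest median difference of the 22 lists. Of 29 contractile filament genes, 25 were called higher and 1 lower, and their median difference was 4.25. Without the smaller plate, 20 were called higher. Beside Myh11, Sorbs2 and Cnn1, Lmod1, a leiomodin that nucleates actin filaments, was among the 4 with the largest differences, at 9.00 ± 1.17. Acta2, smooth muscle actin, stood at 12.74, 12.35, 13.89, 11.95 and 13.18 log2 CPM in mural cells of the strains in the order above and at 5.68 to 8.93 in fibroblasts. Per kilobase, Acta2 was at 3300 CPM per kb in mural cells and Tagln, transgelin, at 1408, although 67.9% of the exon bases of Tagln are shared with another annotated gene. The member called lower was Myh10, the non-muscle myosin IIB heavy chain, at -4.18 ± 1.03. Tpm4 (-0.67), Cald1 (1.96) and Myh9 (1.15) were not called. The list was higher in mural cells than in each fibroblast cluster, with medians from 3.63 against cluster 9 to 6.26 against cluster 5, over strains with 3 or more cells of both. The corresponding medians over all genes ran from -0.47 to 0.62.

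A CArG box is the site of serum response factor, which switches on smooth muscle genes together with myocardin. It reads CC, then 6 bases of A or T, then GG, and is its own reverse complement. RefSeq promoter windows (GRCm38.p6, 250 bases before to 50 after the start) held one for 1.81% of the 27025 genes with a window, for 6.29% of the 445 such genes called higher, for 1.41% of the 1350 called lower and for 4 of 24 contractile filament genes. The boxes of these 4 lay upstream of the start and are shown with 20 bases on each side, box in capitals, because they are the members of the list whose core promoter holds the letters.
Cnn2 (calponin 2, chr10:79988524-79988573, plus strand): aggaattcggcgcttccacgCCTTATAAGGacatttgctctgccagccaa
Ldb3 (a Z-disc protein, chr14:34588687-34588736, minus strand): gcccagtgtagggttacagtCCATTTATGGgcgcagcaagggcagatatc
Myl6 (the essential myosin light chain, chr10:128493030-128493079, minus strand): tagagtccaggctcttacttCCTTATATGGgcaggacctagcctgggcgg
Myl9 (the regulatory myosin light chain, chr2:156775283-156775332, plus strand): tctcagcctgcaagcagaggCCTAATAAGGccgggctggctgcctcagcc
The last base of the box lay 47 bases before the start in Cnn2, 100 in Ldb3, 41 in Myl6 and 152 in Myl9. All 4 genes were called higher in mural cells, by 2.37, 6.79, 2.18 and 4.67 on the log2 scale, the calls of Ldb3 (4.25) and Myl6 (1.94) being lost without the smaller plate of C57BL6. A match of letters does not show that the factor binds there.

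Of 27 genes that control contraction, 17 were called higher and 2 lower, with a median of 3.86. Gucy1a1, a subunit of soluble guanylate cyclase, was at 10.69, 10.85, 10.24, 11.06 and 11.39 log2 CPM in mural cells and at 3.63 to 4.66 in fibroblasts. Its difference was 6.78 ± 0.48. Prkg1, the cGMP-dependent kinase, was higher by 5.56 ± 1.26, but was found in 35.3% of mural cells (5.81% of fibroblasts), and its call was lost without the smaller plate of C57BL6 (3.61). Mrvi1, a target of cGMP-dependent kinase at the calcium store (7.96 ± 0.99), and Rgs4, a brake on G protein signals (7.09 ± 2.55), were among the largest. Mylk, myosin light chain kinase, was higher by 5.67 ± 1.09, and Pde4d and Prkca were called lower, at -4.60 and -4.63. Rhoa, at 0.00, and Rock2, at 0.53, were not called, while Rock1 was, at 2.12.

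Calcium handling genes split by isoform. Of 27, 12 were called higher, 4 without the smaller plate, and 3 lower, with a median of 2.15. Pln, phospholamban, the inhibitor of the calcium pump of the store, differed by 9.88 ± 2.32, Cacna1h, a T-type calcium channel, by 9.11 ± 1.32, Trpc6, a cation channel, by 8.47 ± 1.80 and Casq2, which binds calcium in the store, by 8.26 ± 2.89. The calls of Pln (7.24), Cacna1h (7.2) and Casq2 (5.71) were lost without the smaller plate of C57BL6, the larger having no count of them, and Trpc6 and Ryr2 then no longer passed the expression filter. For Pln, 64.7% of the exon bases are shared with another gene. Among receptors for inositol trisphosphate, Itpr1 was higher in mural cells, at 7.65 ± 0.39 log2 CPM and a difference of 2.15 ± 0.41, which was 1.89 and not called without the smaller plate. Itpr2 and Itpr3 were lower, by -5.10 ± 1.00 and -5.06. Of the ryanodine receptors, Ryr2 was called higher (5.46) and Ryr1 lower (-3.83).

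Potassium channels were called in both directions, 6 of 20 higher (3 without the smaller plate) and 5 lower. Kcna5, a voltage-gated channel (9.65 ± 1.52), Kcnmb1, the smooth muscle subunit of the large calcium-activated channel (9.20 ± 1.56), and Kcnk3, a leak channel (9.06 ± 0.83), were the largest. Kcnk2, another leak channel, was lower by -8.13 ± 1.15 and had no count in mural cells of 3 strains, where the prior count placed it at -4.78 log2 CPM. The calls of Kcna5 (7.25) and Kcnmb1 (6.85) were lost without the smaller plate of C57BL6, as was that of the channel P2rx1 (7.58), and Scn3a then no longer passed the filter. Kcnma1, the pore of the large calcium-activated channel, differed by -0.29 and was not called. Of 24 other channels, 3 were called higher (1 without the smaller plate) and 6 lower, with a median of -1.16. P2rx1, an ATP-gated cation channel, differed by 10.25 ± 2.04, Scn3a by 9.00 ± 1.34 and Ano1, a calcium-activated chloride channel, by 6.88 ± 1.55. The mechanosensitive channels Piezo1 and Piezo2 were called lower, at -3.17 ± 1.13 and -6.99 ± 2.59. Against cluster 1, Piezo2 was at -0.47.

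Receptors for vasoactive signals were called higher for 11 of 42 (5 without the smaller plate) and lower for 8. The largest differences were those of Olfr78, of the odorant receptor family (10.66 ± 2.91), Hcrtr1, an orexin receptor (10.00 ± 1.29), Crhr2, a receptor of the corticotropin-releasing factor family (9.82 ± 1.76), and Mrgprh (9.31 ± 0.91). With the smaller plate of C57BL6 left out, the calls of Olfr78 (7.65) and Crhr2 (7.34) were lost and Hcrtr1 and Mrgprh did not pass the filter. Olfr78 was at 9.40 to 10.22 log2 CPM in mural cells of the 5 strains and was found in 147 of 187 mural cells and 167 of 1566 fibroblasts. In the Notch pathway, 7 of 13 genes were called higher and none lower. Among them were Notch3 and Nrip2, which are markers of the cluster, and the ligand Jag1 (4.34 ± 2.08). The targets Hey2 (6.79 ± 1.35) and Nrarp (9.52 ± 1.46) were also called, the last with 79.4% of its exon bases shared. Of 41 transcription factors, 7 were called higher and 8 lower. Myocd, myocardin, had the largest difference of the list, at 9.98 ± 1.65, and Srf, at -0.09, was not called. Scx, Prrx2 and Meox1, factors of tendon and mesenchyme, were lower by -6.79, -6.56 and -6.49, though not against every cluster. Scx was at -8.05 against cluster 2 and -8.64 against cluster 9 but between -0.74 and 1.33 against the 7 others, Prrx2 was at -0.48 against cluster 10, and Meox1 at -0.19 against cluster 1.

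Energy metabolism differed by less than contraction and mostly below the size needed for a call. In oxidative phosphorylation, the 76 nuclear genes of the respiratory chain had a median difference of 1.33, with medians between 1.00 in C57BL6 and 1.72 in PdgfrbGFP. Of these, 4 (5.26%, against 4.6% of all genes) were called higher and none lower, and the lowest value was -0.05. The count depends on the rule of size: by edgeR's adjusted p, 55 of the 76 were higher, beside 854 of all 13880 genes. That p is no test here, since the clusters were made from the same counts, and serves only as another way to count. The called genes were Cox4i2, an alternative subunit of cytochrome oxidase (7.95 ± 1.80), Cox7a1, its muscle isoform (4.45 ± 2.06), Ndufa4l2 (2.29 ± 0.52) and Cox5a (2.07 ± 0.53), the last at 1.93 without Cspg4dsRED and 1.96 without PdgfrbGFP and then not called. Cox4i2 was at 7.21 to 8.80 log2 CPM in mural cells and at -3.06 to 1.47 in fibroblasts, without overlap. Against cluster 2, Ndufa4l2 differed by only 0.68. All 12 transcripts of the mitochondrial genome that were tested had positive differences, from 1.10 to 2.36, with a median of 1.56. Cytochrome b, mt-Cytb, stood at 12.12, 12.31, 12.31, 11.85 and 12.32 log2 CPM in mural cells and at 10.68 to 11.08 in fibroblasts, so the groups did not overlap although the difference of 1.23 ± 0.14 was too small for a call. The 3 that were called, mt-Nd3, mt-Nd4l and mt-Co3, were the ones with the fewest reads in mural cells (425, 104 and 186 counts), and none of them was called without the smaller plate of C57BL6 (1.66, 1.97 and 1.46).

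The TCA cycle had a median of 1.32 over 23 genes and glycolysis 1.22 over 23 genes. Without the smaller plate of C57BL6 these medians were 0.95 and 0.26, beside -1.19 over all genes. Counted by edgeR's adjusted p, again no test, 13 and 11 of their genes were higher. In the cycle, Sdhc (2.25 ± 0.56) and Idh3a (2.08 ± 0.38, and 1.93 without Cspg4dsRED) were called higher. Pcx, which makes oxaloacetate from pyruvate, was lower by -4.59 ± 2.54. Pcx was at -0.08, 1.47 and 0.31 against clusters 1, 4 and 5 and between -4.89 and -1.13 against the others. Slc2a4, the insulin-dependent glucose transporter GLUT4, was at 9.50, 8.57, 10.30, 9.47 and 9.58 log2 CPM in mural cells. In fibroblasts it was at 0.70 to 2.05, except 6.40 in Cspg4dsRED, and the difference was 7.19 ± 1.98. Ldhb, the lactate dehydrogenase subunit of oxidative tissue, was higher by 2.80 ± 0.93, and Ldha differed by 0.50. Slc16a1, a lactate carrier, was lower by -7.67 ± 1.96. Of 29 genes of fatty acid and creatine metabolism, 7 were called higher (3 without the smaller plate) and 2 lower. Cd36, the fatty acid receptor (5.55 ± 0.96), Cpt1b, the muscle form of the carnitine transferase (5.59 ± 1.91), and Acsl1 (4.16 ± 1.65) were higher, and Scd1, a desaturase, was lower (-4.98 ± 1.22). The calls of Cpt1b (3.95) and Acsl1 (2.11) were lost without the smaller plate of C57BL6, as was that of the glycolytic enzyme Pfkl, from 2.02 to 0.17. For Cpt1b, 81.4% of the exon bases are shared with another gene. Detoxifying enzymes were called lower for 7 of 32 genes, led by Cyp2f2 (-8.48) and Aldh1a2, which makes retinoic acid (-6.30). Cyp2f2 was at -9.8, -7.32 and -5.83 against clusters 6, 5 and 8 but between -1.86 and 0.01 against the others. Aldh1a2 was at -0.74 and 0.97 against clusters 2 and 5. Aoc3, the vascular amine oxidase, was called higher, at 4.71.

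Of 18 integrins, 4 were called higher (2 without the smaller plate), 5 lower and 9 neither way. Itga7, a laminin-binding integrin of muscle, was nearly even between strains, at 8.68, 9.06, 8.68, 8.82 and 8.97 log2 CPM in mural cells of the 5 strains and at 0.62 to 3.49 in fibroblasts, a difference of 6.42 ± 1.19. Itga8 was higher by 3.53 ± 1.03, while Itgbl1 (-6.35 ± 1.83) and the collagen-binding Itga11 (-4.97 ± 2.46) were lower. Against cluster 9, Itga8 differed by only 0.99. In the focal adhesion and dystroglycan list, 10 of 35 genes were called higher (5 without the smaller plate), 2 lower and 23 neither way. Among the sarcoglycans, Sgca was higher (7.65 ± 1.25), Sgcd was lower (-5.55 ± 1.42), and Sgcb differed by 0.14. The dystrophin partners Sntb1 (7.43 ± 1.85) and Dtna (7.37 ± 1.38) and dystrophin itself, Dmd (3.56 ± 1.26), were higher. Leaving out the smaller plate of C57BL6 ended the calls of Itga8 (1.06), Sgca (5.31), Sntb1 (5.38) and Dtna (5.23).

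Of 34 cell-cell adhesion genes, 7 were called higher and 11 lower. The connexins divided as well. Gja4, the vascular connexin 37, was at 7.07 to 10.08 log2 CPM in mural cells and differed by 9.18 ± 2.03, and Gjc1 differed by 5.44. Gja1, connexin 43, was lower by -6.16 ± 2.28. Cdh6, a cadherin (8.91 ± 1.00), Mcam, the adhesion molecule CD146 (8.82 ± 2.17), and Bcam were also higher, the call of Cdh6 being lost without the smaller plate of C57BL6 (7.2), while Icam1 (-5.83), Cdh11 (-5.65) and Cd44 (-3.60) were lower.

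The laminins changed chain between the classes. Lama5, the laminin chain that Bcam binds, was at 8.69, 7.19, 7.90, 8.89 and 8.55 log2 CPM in mural cells and at -0.20 to 1.79 in fibroblasts, a difference of 6.94 ± 0.98. On the larger plate of C57BL6 it was at 0.713 CPM, and without the smaller plate the difference was 5.40 and the call was lost. Lama2, the chain around muscle fibres, was lower by -4.64 ± 1.92, and Lama4 by -2.68. Of 26 basement membrane genes, 3 (Tinagl1, Lama5 and Agrn) were called higher and 8 lower, among them Smoc2 (-5.59 ± 1.23) and Col15a1 (-5.55 ± 2.53). Col15a1 was at 0.04, 0.53 and -0.98 against clusters 1, 5 and 9. Interstitial matrix was the list furthest below all genes: 45 of 56 were called lower, none higher, with a median of -4.14 and medians against the single fibroblast clusters from -2.77 for cluster 10 to -4.0 for cluster 4. Mmp3 (-6.94), Emilin2 (-6.85), Timp1 (-6.79) and Efemp1 (-6.43) were the lowest. Emilin2 was at -0.03 against cluster 2, and Efemp1 at -0.52 and -0.2 against clusters 2 and 9. Biglycan, Bgn, was called lower by -2.07 ± 0.21 but stayed at 8.70 to 10.12 log2 CPM in mural cells, and Timp3, which inhibits matrix proteases, differed by 1.10 ± 0.74 and overlapped between classes.

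Of 62 growth factors and their binding proteins, 6 were called higher (3 without the smaller plate), 18 lower and 38 neither way. The median of the list was -1.46 against all fibroblasts, but 0.63 against cluster 4, 0.26 against cluster 9 and 1.10 against cluster 10, where the medians of all genes were 0.62, 0.00 and 0.26. Pdgfb was at 5.86, 5.33, 5.46, 7.34 and 5.57 log2 CPM in mural cells and at -2.95 to 0.22 in fibroblasts, a difference of 7.36 ± 1.41. Endothelial cells are the known source of this ligand of Pdgfrb, and endothelial markers summed to 18.4 to 194 CPM in the mural sums, highest in the pool, where Pdgfb was also highest. In the pool's mural sum, Kdr was at 91.9 CPM, Pecam1 at 64.7 and Cdh5 at 1.27. The same markers summed to 36 to 195 CPM in the fibroblast sums, of which Tek held 11.3 to 160. The part of endothelial transcripts in the value of Pdgfb was not tested. Pdgfa (2.31 ± 0.62), Igf2 (2.96), Fgf1 (2.56) and Pgf (2.36) were also called higher, but the calls of Fgf1 (1.49) and Pgf (0.26) were lost without the smaller plate. For Igf2, 64.5% of the exon bases are shared with another gene. Angptl1 (-7.23 ± 2.48), the Wnt inhibitors Wif1 (-6.66 ± 2.33) and Sfrp4 (-6.30 ± 2.63) and Igf1 (-6.13 ± 1.2) were lower. The value of Wif1 came from cluster 2 (-9.42), since it was between -1.06 and 0.86 against the 8 others, and Sfrp4 was at 0.32 and 0.33 against clusters 9 and 10. Of 37 chemokines, peptides and other secreted factors, 2 were called higher, Kitl, the ligand of Kit (2.21 ± 1.21), and Il34, a ligand of the CSF1 receptor (2.08 ± 1.21), and 15 lower. Pthlh, the parathyroid hormone-related peptide (-7.95 ± 1.98), the alarmin Il33 (-6.68 ± 1.12), the vasodilator peptide Adm (-6.51 ± 0.91) and Cxcl14 (-6.10 ± 1.48) were the lowest above the expression minimum. Il33 was at -0.92 against cluster 9, and Cxcl14 at -0.94 against cluster 1.

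Outside these lists, the 8 genes with the largest higher values were Olfr558, a second odorant receptor (10.23), the heat and capsaicin channel Trpv1 (9.72), Sncg, Asb2, an adaptor for the degradation of filamins (9.62), the potassium channel Kcnh2 (9.55), Gm13861 (9.45), Gm38287 (9.35) and Slc38a11 (9.29). The calls of Asb2 (7.03), Kcnh2 (7.13) and Slc38a11 (6.94) were lost without the smaller plate of C57BL6, and Trpv1 did not pass the filter. All exon bases of Gm38287 are shared with another gene. The 8 lowest were Col11a1 (-8.92), Slc43a1 (-7.89), Bdh2 (-7.48), Efs (-7.16), Tent5a (-7.12), Pcsk6 (-7.10), Gas2 (-7.08) and Sema3c (-7.01). Col11a1 was at -10.06 and -9.96 against clusters 2 and 9 but between -4.62 and -1.16 against the others. Gas2 was at -8.64 and -9.08 against clusters 2 and 9 but at -0.17 against cluster 5, and Pcsk6 at 0.06 against cluster 10. In mural cells of C57BL6, Cspg4dsRED and the pool, Col11a1 lay at the prior-count floor of -4.78 log2 CPM, as each other gene did in some strain.

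Within the cluster, the mural cells of the 8 plates did not have one profile. Rgs5, a regulator of G protein signals known from pericytes, summed to 374 CPM in Acta2GFP, 7789 on the larger plate and 5.24 on the smaller plate of C57BL6, 238 in Cspg4dsRED, 4730 on the gastrocnemius plate and 474 on the soleus plate of the pool, and 378 and 292 on the PdgfrbGFP plates. Kcnj8 and Abcc9, the parts of the vascular ATP-sensitive potassium channel, followed the same plates: Kcnj8 was at 1874 CPM on the larger plate of C57BL6 and 1894 on the pool's gastrocnemius plate and at 82.7 or below on the 6 others. Abcc9 was at 761 and 2511 CPM on those plates and at 82.1 or below on the others. Myh11 was at 990 CPM on the larger plate of C57BL6 and 2707 on the gastrocnemius plate, and at 4196 to 6525 on the 6 others. Cnn1 was at 8.56 and 78.3 CPM against 813 to 1775. The plates high in Rgs5 were thus the ones low in contractile genes, and they held 5 and 6 mural cells. Itga7, Mcam and Tinagl1 did not follow this division, Itga7 lying between 347 and 595 CPM on all 8 plates and Mcam between 433 and 1111. Of 14 pericyte markers tested against fibroblasts, 7 were called higher, with a median of 3.06, and Kcnj8, Abcc9, Vtn and Pdgfrb were not called.

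**Figure D3:**
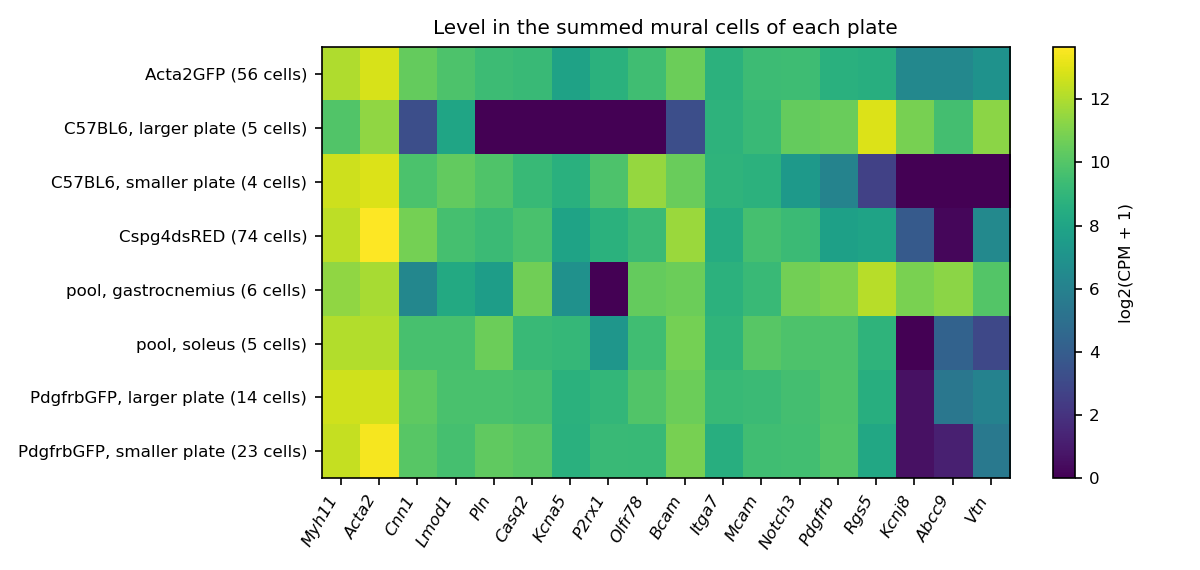
Level, as log2(CPM + 1), of 18 genes in the summed mural cells of each of 8 plates, with the number of cells in parentheses. The larger plate of C57BL6 and the gastrocnemius plate of the pool are high in Rgs5, Kcnj8, Abcc9 and Vtn. The same plate of C57BL6 is at 0 for Pln, Casq2, Kcna5, P2rx1 and Olfr78.

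A contractile score was given to each mural cell as the mean of log2(counts per 500000 + 1) over 10 contractile genes. Its median was 10.04 in Acta2GFP, 9.67 in Cspg4dsRED and 10.18 in PdgfrbGFP, where the 10th to 90th percentiles ran from 9.13 to 10.57, 8.38 to 10.49 and 8.54 to 10.64. On the larger plate of C57BL6 the median was 7.08 and no cell exceeded 7.54, and on the smaller it was 10.07 and no cell was below 9.06, so the cells of these plates did not overlap. The gastrocnemius cells of the pool ran from 2.50 to 10.14. Single cells with a low score were also present in larger groups, down to 4.63 in Acta2GFP and 4.26 in PdgfrbGFP.

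**Figure D4:**
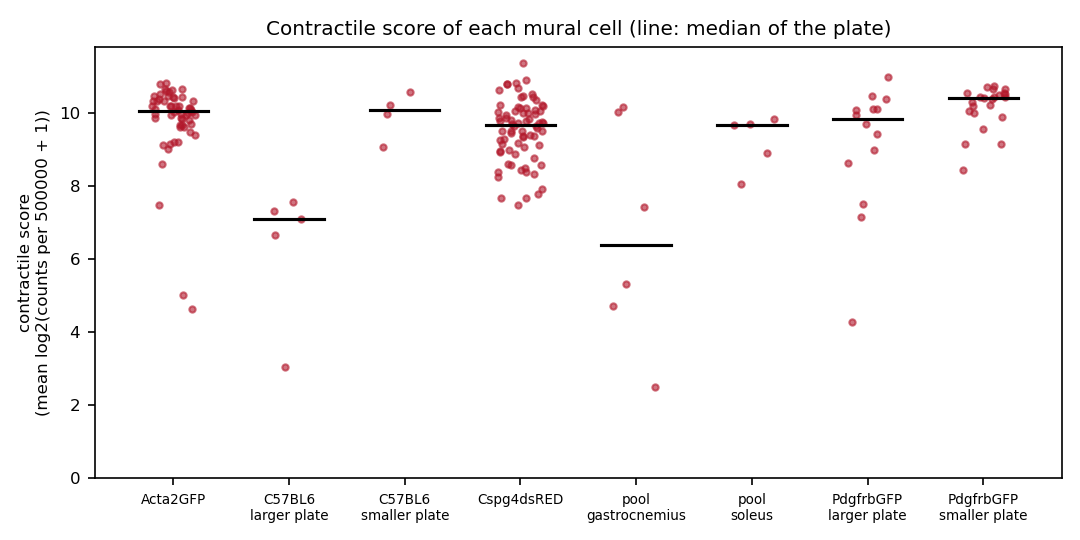
Contractile score of each of the 187 mural cells by plate, with the median of the plate as a line. Medians lie between 9.66 and 10.40 except on the larger plate of C57BL6 (7.08) and the gastrocnemius plate of the pool (6.37).

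No gene outside the score followed it in every strain with 30 or more mural cells. Of 3154 genes, none had a Spearman rho of 0.4 or more, or of -0.4 or less, in all of Acta2GFP (56 cells), Cspg4dsRED (74) and PdgfrbGFP (37), and 7 did when Cspg4dsRED was left out. The cells of Acta2GFP share a plate, as do those of Cspg4dsRED, while those of PdgfrbGFP came from a plate with 14 and a plate with 23 mural cells. The score had a rho of -0.30, -0.13 and -0.21 with the counts per cell. The median of the mean rho was 0.04 over all genes, 0.23 over the other contractile filament genes, 0.23 over mitochondrial transcripts and -0.13 over pericyte markers. Rgs5 had a rho of -0.35, -0.19 and -0.20 with Myh11.

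The spread of each gene between mural cells of a strain was set against the ERCC spike-ins, synthetic RNAs added in equal amount to each well, as the ratio of its squared coefficient of variation to that of a spike-in at the same mean. The median gene had a ratio of 2.61, and 83 of 3164 genes (2.62%) had a ratio of 4 or more in each of the 3 strains. Set against the trend of all genes in place of the spike-ins, 0 genes did, so the 83 depend on the spike-in trend. Rgs5 was the second of these, with ratios of 21, 12.6 and 16.2. It was found in 89.3% of the mural cells of Acta2GFP, 27.0% of Cspg4dsRED and 35.1% of PdgfrbGFP, beside 26.5% of all fibroblasts, and its 90th percentile was 518, 370 and 698 counts per 500000 beside medians of 18.9, 0 and 0. Early response genes, which dissociation and sorting are known to induce, made up 10 of the 83, out of 17 tested. Fos spread from 80.9 to 2066 counts per 500000 (10th to 90th percentile) in Acta2GFP, from 61.4 to 4969 in Cspg4dsRED and from 68.1 to 3866 in PdgfrbGFP, and Nr4a1 and Ccn1, a matricellular protein, were also among the first 12. Of the contractile filament genes, 6 of 27 were variable, Acta2, Actg2, Myh11, Smtn, Des and Sorbs2. Actg2, the enteric form of smooth muscle actin, was found in 42.9%, 31.1% and 37.8% of cells (6.07% of fibroblasts) and reached 15.2, 4.79 and 5.73 counts per 500000 at the 90th percentile beside means of 77.2, 43.9 and 33.5, so a few cells held most of its counts.

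Further secreted proteins also varied from cell to cell. Timp4, an inhibitor of matrix proteases, had a median of 10.1, 0.896 and 0 counts per 500000 and a 90th percentile of 639, 986 and 404. Igfbp4, which binds insulin-like growth factors, ran from 40.1 to 1419 in Acta2GFP, from 13.3 to 3152 in Cspg4dsRED and from 13.9 to 2280 in PdgfrbGFP. Bgn and Vtn, vitronectin, were also among the first 12. CT010467.1, Gm42418 and AY036118, annotated genes that lie in ribosomal RNA repeats, complete the 12. At the other end, none of 73 respiratory chain genes was variable, where the share of all genes, 2.62%, would give only a few. Their median ratio was 0.969, below the 2.61 of all genes. The TCA cycle (20 genes), focal adhesion (26) and Notch (8) lists also held none, but at 2.62% of all genes fewer than 1 is reached by the background in each, and their median ratios of 2.80, 3.09 and 2.80 lay above that of all genes.

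**Figure D5:**
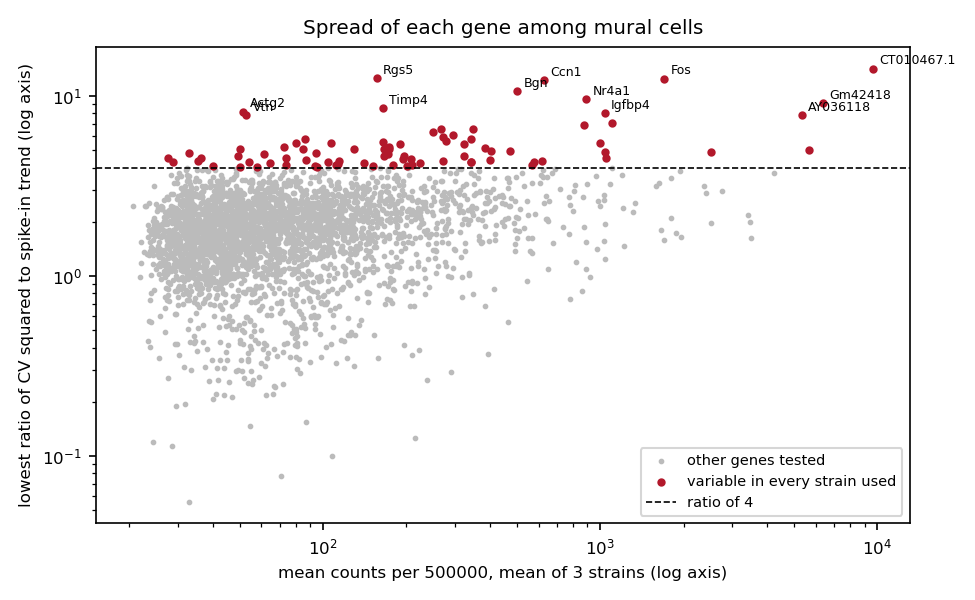
Lowest ratio over 3 strains of a gene's squared coefficient of variation to the spike-in trend, against its mean, both on log axes, for 3164 genes. The 83 variable genes are red and lie above the dashed line at 4, and the first 12 are named.

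Each mural cell was thinned to 40000 gene counts, and the distance between cells was taken as 1 minus Pearson r over 7096 genes. Mural cells were at a mean distance of 0.58 from each other in Acta2GFP, where 6 fibroblast clusters ran from 0.56 to 0.598, at 0.656 in Cspg4dsRED against 0.649 to 0.712 and at 0.622 in PdgfrbGFP against 0.603 to 0.662. In these strains they lay within the range of the fibroblast clusters. In C57BL6, at 0.732 against 0.641 to 0.70 over 7 clusters, and in the pool, at 0.691 against 0.564 to 0.643 over 8 clusters, they lay above all of them. The mural pairs of C57BL6 run across its plates of 5 and 4 mural cells, whereas nearly all of its fibroblasts lay on the larger plate, so plate and class cannot be told apart there. The median of genes per thinned mural cell was 2733 in C57BL6, within the 2164 to 2934 of its fibroblast clusters, and 2873 in the pool, below the 3059 to 4555 of its clusters.

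The muscle label was not used to make the clusters, so soleus and gastrocnemius could be tested. Mural cells were 17 of 148 gastrocnemius cells of PdgfrbGFP (11.5%, exact 95% interval 6.84 to 17.8) and 6 of 115 soleus cells (5.22%, 1.94 to 11). In the pool they were 6 of 231 (2.6%, 0.959 to 5.57) and 5 of 181 (2.76%, 0.903 to 6.33), so the intervals overlapped in both strains. In sums over mural cells with the strain as a block, edgeR's quasi-likelihood test called none of 8194 genes (0.0% higher and 0.0% lower) at an adjusted p of 0.05. With 4 sums, 1 residual degree of freedom remained. At an unadjusted edgeR p of 0.05 there were 151 of 8194 genes, fewer than that threshold passes on average where nothing differs. DESeq2 called 28 higher and 75 lower in soleus. The smallest edgeR p was that of Abcc9 (adjusted p = 0.168), which had 3080 counts in gastrocnemius and 36 in soleus of the pool, and 5 and 0 in PdgfrbGFP. In the pool each muscle lay on its own plate, so muscle and plate cannot be told apart there. Angptl2, Gtf2f1 and CT010467.1 followed, each with an adjusted p of 1. Rgs5 went in opposite directions, from 5801 counts in gastrocnemius to 914 in soleus of the pool, and from 5 to 1096 in PdgfrbGFP.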

How the data were processed

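Counts of reads for each gene in each cell, not normalized, were taken as the authors deposited them. Per their methods, trimmed reads were mapped to GRCm38 with TopHat2 and counted with featureCounts. They dropped shallow cells, cells with very many genes as likely doublets, cells lacking Pdgfra and Pdgfrb, and cells contaminated by other cell types. No further doublet step was run here. The use of strand in counting is not given in the sources used here, so genes that share exon bases cannot be told apart. Smart-seq2 carries no molecular identifiers, and intervals cover counting error only. Cells were grouped by the cluster, strain and muscle labels, and 1 column with no label was not used. Exon lengths and overlaps came from GENCODE M21.

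Counts were summed per strain and class, with 3 or more cells a sum, and filtered with filterByExpr. Log2 CPM was computed with a prior count of 2 in edgeR 4.0.16 (R 4.3.3), with DESeq2 1.42.0 as an alternative. Spike-ins took 1.38% of counts in mural cells and were left out of library sizes. For spread and score, strains with 30 or more mural cells and genes with a mean of 20 or more counts per 500000 were used. The contrast of mural cells with fibroblasts, the muscle test and the steps for spread and score were run on simulated data. The distances, the promoter search, the shares and the gap test were not. Members and gene lists were chosen with earlier results of these data known. Named genes were the 8 markers, in each list the 4 called members with the largest differences at 5 log2 CPM or more (all where 5 or fewer were called), 8 higher and 8 lower outside the lists at 6 log2 CPM or more, the 12 most variable genes and the 4 smallest p-values between muscles. Other genes were chosen after their values were seen. Results for some genes are not reported here.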

Additional observations from a re-analysis of the deposited data

Results flagged for a closer look

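Of 40 values looked at over the 5 strains, 4 had a strain apart from the rest by a gap test at the 95% level, where chance flags about 1 in 20. The median difference of the TCA cycle list was 0.30 in C57BL6 and 1.40 to 1.77 in the other strains. Immune markers summed to 624 CPM in the mural cells of C57BL6, all from the smaller of its plates. Endothelial markers summed to 194 CPM in those of the pool, and Schwann cell markers to 109 CPM in those of Acta2GFP.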

How the results depend on the processing

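Genes called higher fell from 638 to 307 without the smaller C57BL6 plate and to 309 without 16 mural cells that held 100 or more counts per 500000 of markers of other cell types, both chosen after seeing the data. With the plate as the unit, 258 were called higher and 1038 lower. Calling by edgeR's adjusted p with the strain as a replicate block gave 854 higher and 1286 lower, as a count and no test. The block fit with the size rule gave 629 and 1853, and no replicate block 635 and 1550. Leaving out one strain gave 654 to 804 higher and 2087 to 2786 lower. No direction of a named gene turned. Without the block the median of the transcription factor list turned from -0.38 to 0.37 and that of vasoactive receptors from -0.07 to 0.99. That of potassium channels turned from 0.83 to -0.33 without the filter on low counts, to -0.09 without the smaller C57BL6 plate and to -0.06 without cells that held other markers. The cause was not tested. Between muscles, soleus calls were 28 higher and 75 lower by DESeq2, 1 lower with relative log expression and 6 lower without the filter. Leaving out a strain left no degrees of freedom and was not run. Variable genes numbered 0 against the trend of all genes, 69 at a minimum mean of 50, and 155 to 340 without one strain. The contractile score had 1 gene past the limit with Myh11 alone and 0 to 7 without one strain. The C57BL6 and pool values rest on 9 and 11 cells.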
